A study of Mus musculus with 2 samples.

Results

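The 10 genes described here encode transcription factors that set or hold the lineages of mammary epithelium: Trp63, Snai2, Sox10, Sox9, Elf5, Elf3, Ehf, Gata3, Foxa1 and Grhl2. They were chosen by name and are 10 of the 27998 genes in the table. Their unique molecular identifiers (UMIs, each marking 1 captured RNA molecule) were counted over cells without a UMI of Ptprc, the pan-leukocyte surface marker, and the cells were sorted by their keratin RNA. The data came from a mammary regeneration assay with 2 droplet libraries. In the Ctrl library the donor basal cells were Fgfr2+/+, and in the Fgfr2 KO library they were Fgfr2Δ/Δ, made from Fgfr2 fl/fl cells. Basal donor cells of both libraries came from mice with the R26R mT/mG reporter and had received Cre and GFP from an adenovirus, so deletion depended on infection and not on a cell type promoter. These basal cells were green. They were mixed with luminal cells that were wild type for Fgfr2, carried the same reporter and were red. Red is the color of a reporter that has not recombined. The mixtures went into cleared fat pads of female nude (nu/nu) hosts aged 3 weeks, which lack mature T cells but keep other immune cells, and grafts were taken 5 days after surgery. How many hosts were pooled is not given in the sources used here. With a single library for each genotype nothing could be tested between groups, and the intervals given take in the error of counting alone.

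The adult mammary duct has an outer basal layer of contractile cells and an inner luminal layer. Trp63 (p63) maintains basal epithelium, Snai2 (Slug) is a zinc finger repressor of epithelial genes, and Sox10 and Sox9 are related SOX factors linked to stem and progenitor states. Elf5 is the ETS factor that drives alveolar differentiation, Gata3 and Foxa1 work with the estrogen receptor in hormone-sensing luminal cells, and Grhl2 maintains epithelial junction genes across layers.

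The Ctrl library held 268 cells and the Fgfr2 KO library 86, with 195 and 63 lacking a Ptprc UMI. No cell barcode occurred in both libraries. Cells with at least 10 UMIs of Krt14, Krt5, Krt8 and Krt18 were classed by the share of these from Krt14 and Krt5, the basal keratins. A share above 0.8 gave the basal keratin class, with 34 Ctrl and 14 Fgfr2 KO cells. A share under 0.2 gave the luminal keratin class, with 71 and 18 cells, and the 57 and 5 cells between were called cells with both keratin sets. In Ctrl, 16 cells lay within 0.05 of the lower cut and 21 within 0.05 of the upper cut. Median depth was 15102 UMIs per cell in the Ctrl basal class, 20302 in cells with both sets and 23661 in the luminal class.

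The classes matched their names on markers that the keratin rule did not use. The summed level of 6 contractile genes (Acta2, Myh11, Mylk, Oxtr, Cnn1, Tagln) was 3698 UMIs per 1000000 UMIs of the class (CPM) in the Ctrl basal class, 2156 in cells with both sets and 817 in the luminal class. The summed level of 5 luminal genes (Epcam, Cldn3, Krt19, Krt7, Cd24a) ran the other way, at 1161, 1912 and 5148 CPM. A list of 6 immune genes summed to 490 to 810 CPM in the 3 Ctrl classes and 222 to 244 CPM in the Fgfr2 KO classes, against 18921 and 15107 CPM in cells with Ptprc. All 6 of these immune genes had UMIs in each of those classes. A list of 6 fibroblast genes stood at 118, 405 and 653 CPM in the Ctrl basal, both-set and luminal cells, and at 34.0, 0 and 169 CPM in Fgfr2 KO. Among 4 endothelial genes, the highest summed level in any of these classes was 29.0 CPM, from 3 UMIs in the 5 Fgfr2 KO cells with both sets. The part of such RNA in the results below was not tested. Fgfr2 itself stood at 40.0 and 25.5 CPM in the Ctrl and Fgfr2 KO basal classes and at 49.5 and 56.3 CPM in the luminal classes. The sources used here do not say whether the counted tags lie in the deleted part, so these levels do not check the labels.

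In Ctrl, Trp63, Snai2 and Sox10 were higher in the basal than in the luminal keratin class, and Elf5, Elf3, Ehf, Gata3 and Foxa1 were lower. These 3 and 5 genes are called basal and luminal factors below. Sox9, known in both layers, and Grhl2, found across epithelium, were put in neither group, and neither was called here. The grouping was made with earlier results of these data known, so the counts and medians by group are a description and no independent sign of direction. A factor was called where the ratio of CPM was at least 2-fold and its exact 95% interval left out no change. By that rule 5.92% of 8430 genes were higher in the basal class and 8.55% were higher in the luminal class, among genes with at least 20 UMIs in the 2 classes together. The median log2 ratio over those genes was -0.14, and the medians for the basal and luminal factors were 1.93 and -2.27. Of the 10 factors, 9 reached 20 UMIs, and Snai2 with 13 was also counted. With cuts at 0.1 and 0.9, which leave 11 basal and 53 luminal cells, Sox10, Elf5 and Ehf were not called and Sox9 was, and with each cell thinned to 5000 UMIs Elf3 and Foxa1 were the ones called.

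**Figure D1:**
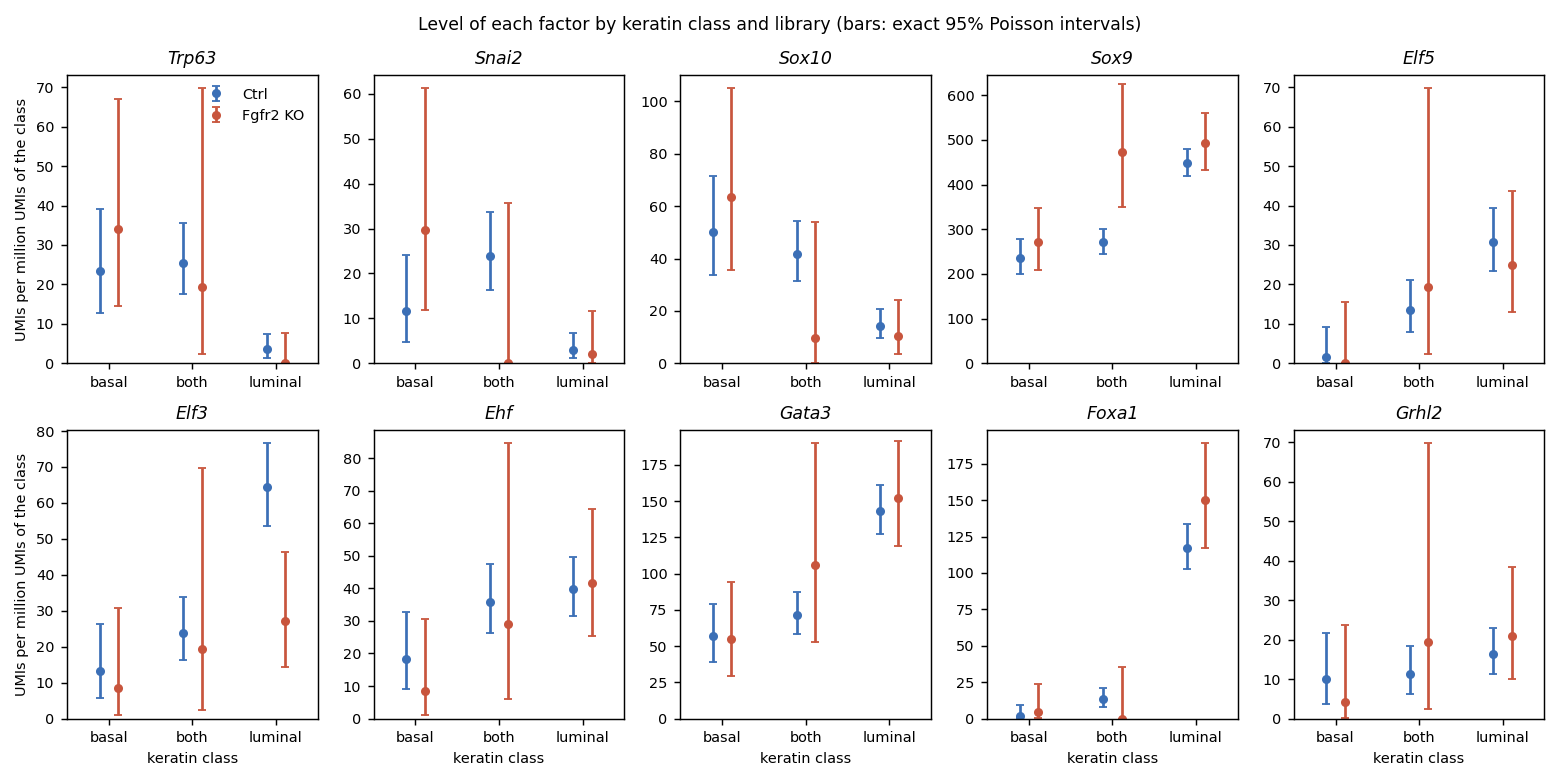
Level of each factor in UMIs per 1000000 UMIs of the class, by keratin class on the horizontal axis, for Ctrl (blue) and Fgfr2 KO (red), with exact 95% Poisson intervals as bars. Foxa1 rose from 1.67 CPM in the Ctrl basal class to 117 CPM in the luminal class, and Elf3 is the factor whose luminal level differed between libraries, at 64.3 and 27.1 CPM.

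Trp63 is on chromosome 16 (GRCm38, positions 25683763 to 25892102, plus strand). It had 14 UMIs in the Ctrl basal class (23.3 CPM, 95% interval 12.8 to 39.1), 34 in cells with both sets (25.4 CPM, 17.6 to 35.5) and 7 in the luminal class (3.57 CPM, 1.44 to 7.36). The basal over luminal log2 ratio was 2.71 (1.30 to 4.26), a 6.53-fold difference. Cells with both sets and basal cells did not differ beyond counting error, at a log2 ratio of 0.12 (-0.81 to 1.13). In Fgfr2 KO the basal class held 8 UMIs and the 18 luminal cells none, which gives at least 5.43-fold higher when the luminal class is set at 3 counts over the group. Its detection was sparse: 9 of 34 Ctrl basal cells had a UMI, and 2 of 73 Ctrl cells with Ptprc did, at a median depth of 12228.

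Snai2 (chromosome 16, 14705852 to 14709385, plus strand) stood at 32 UMIs and 23.9 CPM (16.3 to 33.7) in Ctrl cells with both sets, which did not differ from basal cells beyond counting error, at a log2 ratio of 1.03 (-0.17 to 2.46). The basal class had 7 UMIs (11.7 CPM) and the luminal class 6 (3.06 CPM), a log2 ratio of 1.93 (0.13 to 3.78). Of the 7 basal UMIs, 3 came from 1 cell, and without the top cell of each side the ratio of 1.38 (-0.95 to 3.60) was not called. In Fgfr2 KO the ratio was 3.83 (0.87 to 9.33), on 7 basal UMIs and 1 luminal UMI. Snai2 thus leaned to the basal side in both libraries, on few molecules in each.

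Sox10 (chromosome 15, 79154908 to 79165240, minus strand) was the most counted of the basal factors, with 30 UMIs in the Ctrl basal class (49.98 CPM, 33.7 to 71.3), 56 in cells with both sets (41.8 CPM) and 28 in the luminal class (14.3 CPM). Its basal over luminal log2 ratio was 1.81 (1.01 to 2.60) in Ctrl and 2.61 (1.08 to 4.43) in Fgfr2 KO. Sox10 was the basal factor with UMIs in the largest number of luminal cells, 14 of 71 in Ctrl, and those were not spread evenly, as the division of luminal cells below shows.

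Sox9 (chromosome 11, 112782224 to 112787760, plus strand) was the member with the largest UMI total and was present in every epithelial class. Its Ctrl level was 237 CPM (199 to 279) in the basal class, 271 CPM (244 to 300.4) in cells with both sets and 448 CPM (419 to 479) in the luminal class. The luminal class was higher, at a basal over luminal log2 ratio of -0.92 (-1.19 to -0.66), short of 2-fold. In Fgfr2 KO the same ratio was -0.86 (-1.28 to -0.46). It passed 2-fold in 4 of 12 alternatives, at -1.73 with cuts at 0.1 and 0.9, -1.43 with each cell weighing alike, -1.32 thinned to 5000 UMIs and -1.03 without the top cell of each side. A UMI was found in 31 of 34 basal and 70 of 71 luminal Ctrl cells, and in 19 of 73 Ctrl cells with Ptprc, whose median depth was 12228 UMIs.

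Elf5 (chromosome 2, 103411688 to 103450989, plus strand) had 1 UMI in the Ctrl basal class, 18 in cells with both sets (13.4 CPM, 7.97 to 21.2) and 60 in the luminal class (30.6 CPM, 23.4 to 39.4). The basal over luminal log2 ratio was -4.20 (-9.53 to -1.67). Only 11 of 71 luminal cells held its UMIs, 15 of the 60 in the top cell. In Fgfr2 KO, 12 UMIs stood against 0 in the basal class, at least 1.96-fold, which is under the call.

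Elf3, an epithelial ETS factor (chromosome 1, 135253575 to 135258568, minus strand), stood at 13.3 CPM in Ctrl basal, 23.9 in both-set and 64.3 CPM (53.6 to 76.6) in luminal cells, with a basal over luminal log2 ratio of -2.27 (-3.51 to -1.25). In Fgfr2 KO its levels were 8.49, 19.3 and 27.1 CPM, and the ratio of -1.67 (-4.86 to 0.47) did not pass. Ehf, another epithelial ETS factor (chromosome 2, 103263433 to 103303278, minus strand), stood at 18.3, 35.8 and 39.8 CPM in Ctrl, a ratio of -1.12 (-2.18 to -0.20). Of its 11 Ctrl basal UMIs, 8 came from 1 cell, and without the top cell of each side the ratio was -2.68 (-4.99 to -1.07). The Ctrl ratio of Ehf was called in 7 of 12 alternatives, and a simple keratin majority gave the smallest, -0.41. In Fgfr2 KO its levels were 8.49, 29.0 and 41.7 CPM and the ratio -2.30 (-5.44 to -0.25). Ehf and Elf5 are neighbours, 108409 bases apart with no protein-coding gene wholly between them, and in cells with both sets Ehf stood at a log2 ratio of -0.15 (-0.70 to 0.39) to the luminal class and Elf5 at -1.19 (-2.04 to -0.41), intervals that overlap.

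Gata3 (chromosome 2, 9857078 to 9890034, minus strand) was the luminal factor most often found in basal cells, in 21 of 34 in Ctrl. Its Ctrl levels were 56.6 CPM (39.2 to 79.2), 71.7 CPM and 143 CPM (127 to 161) from basal to luminal, a basal over luminal log2 ratio of -1.34 (-1.90 to -0.82). In Fgfr2 KO they were 55.2, 106 and 152 CPM, a ratio of -1.46 (-2.44 to -0.60). Among cells with Ptprc, 13 of 73 in Ctrl held a Gata3 UMI.

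Foxa1, a forkhead pioneer factor (chromosome 12, 57540628 to 57546916, minus strand), had the largest ratio of the 10 in both libraries at these class cuts. It had 1 UMI in 34 Ctrl basal cells and 230 in 71 luminal cells (117 CPM, 103 to 134), a log2 ratio of -6.14 (-11.45 to -3.65). In Fgfr2 KO, 1 basal UMI stood against 72 luminal UMIs (150.0 CPM), a log2 ratio of -5.14 (-10.47 to -2.62). Cells with both sets held 18 UMIs in 12 of 57 cells, 3.01 (0.35 to 8.39) above basal and -3.13 (-3.91 to -2.43) against luminal on the log2 scale.

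Grhl2 (chromosome 15, 37233036 to 37363569, plus strand) stood at 10.0 CPM (3.67 to 21.8), 11.2 CPM and 16.3 CPM (11.2 to 23.1) from basal to luminal in Ctrl. Its log2 ratio of -0.71 (-2.26 to 0.57) did not pass, and the interval is wide on 6 basal UMIs.

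In Fgfr2 KO, 3 of 3 basal factors were called higher in the basal class and 3 of 5 luminal factors (Ehf, Gata3, Foxa1) were called higher in the luminal class. Over the 4183 genes with at least 20 UMIs there, 7.29% were higher in the basal class and 10.8% in the luminal class. The median log2 ratio over those genes was -0.22, against 2.61 for the basal and -1.67 for the luminal factors. There 5 of the 10 factors reached 20 UMIs. With cuts at 0.1 and 0.9 Sox10 was the one basal factor called, and with each cell thinned to 5000 UMIs Snai2 was. Ehf lost its call with those cuts, with a simple keratin majority, with at least 50 keratin UMIs and on thinning, and Gata3 on thinning, where its ratio was -1.05 (-2.69 to 0.38).

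Promoter windows from RefSeq (GRCm38.p6) were found for 4 of the 10 members, all luminal factors that divide the luminal cells below, in 5 windows. The 3 windows with a motif match are shown. Each run is the 250 bases before a start site, read 5′ to 3′ on the gene's strand, with matches to fixed motifs in capitals. Letters were searched on both strands and overlapping matches are joined. For the zinc finger family of Gata3 they were AGATAA or TGATAA. For the ETS family they were CGGAAG or AGGAAG, and for forkhead factors TGTTTAC. The E-box bound by Snai2 and its relatives was CAGGTG. For SOX factors they were ACAATG or ACAAAG, and for the family of Grhl2 AACCGGTT. The windows are Elf5 at chr2:103411848-103412097, Elf3 at chr1:135258473-135258722 and Foxa1 at chr12:57546112-57546361.
Elf5: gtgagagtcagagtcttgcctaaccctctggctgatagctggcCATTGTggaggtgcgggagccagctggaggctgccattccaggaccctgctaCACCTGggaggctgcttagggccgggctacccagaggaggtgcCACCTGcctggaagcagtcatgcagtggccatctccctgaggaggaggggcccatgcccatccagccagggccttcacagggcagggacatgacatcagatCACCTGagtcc
Elf3: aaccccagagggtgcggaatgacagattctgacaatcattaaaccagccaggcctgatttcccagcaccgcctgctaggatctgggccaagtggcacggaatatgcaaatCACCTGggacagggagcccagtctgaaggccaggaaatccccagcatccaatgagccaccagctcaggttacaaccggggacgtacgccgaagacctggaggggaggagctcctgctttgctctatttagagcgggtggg
Foxa1: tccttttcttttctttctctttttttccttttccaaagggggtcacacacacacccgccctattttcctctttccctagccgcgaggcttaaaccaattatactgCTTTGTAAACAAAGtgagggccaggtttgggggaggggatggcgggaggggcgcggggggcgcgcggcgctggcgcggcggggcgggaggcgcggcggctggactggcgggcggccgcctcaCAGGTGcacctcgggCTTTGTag
The Elf5 window held 3 E-boxes and 1 ACAATG, the Elf3 window 1 E-box, and the Foxa1 window 1 forkhead motif overlapped by ACAAAG on either side, a further ACAAAG and 1 E-box. Of 32851 windows of this length, 17.2% held the E-box, 3.17% the forkhead motif, 16.5% ACAAAG and 10.7% ACAATG. The other Elf5 window and the Gata3 window held none of the 9 motifs. These are matches of letters, and they say nothing of binding.

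Dividing Ctrl cells more finely by the basal keratin share showed where each factor changed along the range. Foxa1 stood at 179 CPM (155 to 206) in the 42 cells with a share under 0.05 and at 42.0 CPM (29.6 to 57.9) in the 29 cells from 0.05 to 0.2, both inside the luminal class. Sox9, Gata3 and Elf3 had the same step, from 606 to 255 CPM, from 192 to 84.0 CPM and from 98.3 to 22.7 CPM. Elf5 ran opposite across those bins, at 14.8 CPM (8.48 to 24.1) and 49.95 CPM (36.3 to 67.1). Beyond 0.2, Sox9 stayed between 247 and 268 CPM through the remaining bins, while Trp63 and Sox10 stood at 34.3 and 49.9 CPM in the bin from 0.5 to 0.8.

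**Figure D2:**
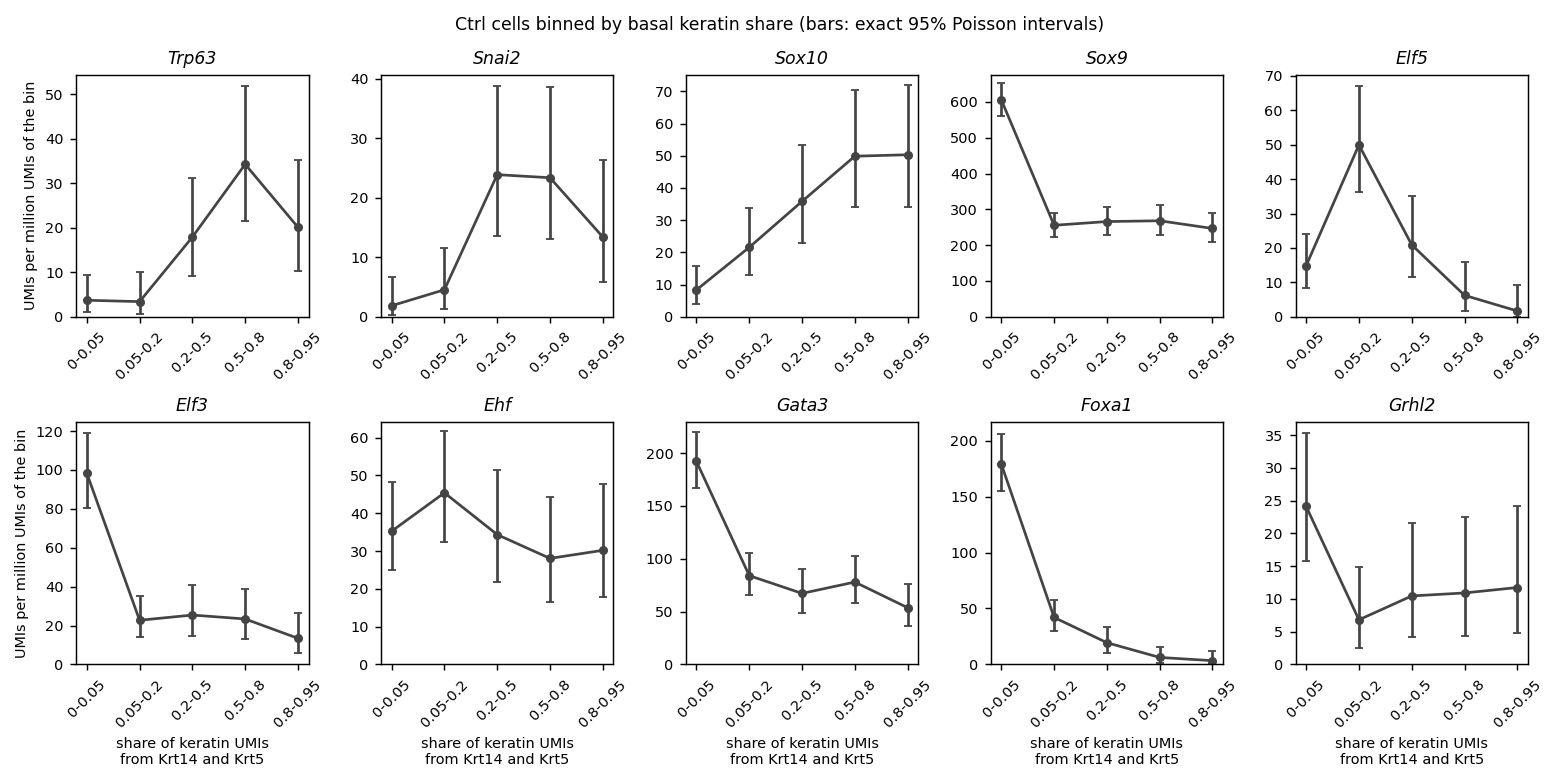
Level of each factor in UMIs per 1000000 UMIs of the bin over 5 bins of the basal keratin share (horizontal axis) in Ctrl cells, with exact 95% Poisson intervals as bars. Foxa1, Sox9, Gata3 and Elf3 are highest under a share of 0.05, and Elf5 between 0.05 and 0.2.

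Cells with both keratin sets carried factors of both kinds. In Ctrl, Trp63, Snai2 and Sox10 were called higher there than in the luminal class, at log2 ratios of 2.83 (1.63 to 4.25), 2.96 (1.69 to 4.51) and 1.55 (0.87 to 2.26), where 5.39% of 9152 genes were higher and 4.62% lower. Elf5 and Foxa1 were called higher than in the basal class, each at 3.01 (0.35 to 8.39), with 3.75% of 7551 genes higher and 1.84% lower than there, and Elf5, Elf3, Gata3 and Foxa1 lower than in the luminal class. Counted apart, a basal factor had a UMI in 45 of 57 Ctrl cells with both sets, and a luminal factor in 47. The counts were 18 and 22 of 34 in the basal class and 23 and 68 of 71 in the luminal class. In 36 of the 57 cells at least 1 UMI of a basal factor and 1 of a luminal factor occurred together, 63.2% (exact Clopper-Pearson interval 49.3 to 75.6). The share was 29.4% in the basal class (15.1 to 47.5), 32.4% in the luminal class (21.8 to 44.5) and 8.22% in cells with Ptprc (3.08 to 17.0), whose median depth was lower, at 12228 UMIs. Thinned to 5000 UMIs per cell, the shares were 23.2% of 56 (13.0 to 36.4), 5.88% of 34 (0.72 to 19.7) and 4.29% of 70 (0.89 to 12.02), and 2.94% of 68 cells with Ptprc. In Fgfr2 KO 3 of 5 such cells held both kinds (14.7 to 94.7%), against 7 of 14 in the basal class (23.0 to 77.0%) and 5 of 18 in the luminal class (9.69 to 53.5%). These intervals overlap. After thinning none of the Fgfr2 KO cells of the 3 classes held both kinds, 0 of 5 in cells with both sets (0 to 52.2%). Sox10 with Gata3 was found in 18 of the 57 Ctrl cells, Trp63 with Gata3 in 14, Sox10 with Foxa1 in 3 and Trp63 with Foxa1 in 2. Singly, Gata3 was found in 38 of them, Sox10 in 27, Trp63 in 19 and Foxa1 in 12. Whether factors occurred together more often than their separate rates give was not tested. Droplets with more than 1 cell were looked for with Scrublet, which marked 0 of these 57 cells and 1 of the 5. In all it marked 2 of 268 Ctrl and 6 of 86 Fgfr2 KO barcodes.

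The luminal keratin class split along 2 marker lists, one of hormone-sensing cells (Esr1, Pgr, Prlr, Cited1, Areg, Prom1, Wnt4, Tbx3) and one of luminal progenitors (Kit, Aldh1a3, Csn3, Wfdc18, Ltf, Cd14, Trf, Mfge8). No member is on either list. Cells with at least 2 more detected markers of one list were placed on its side, a range and not a cell type. In Ctrl this gave 39 hormone-sensing, 17 progenitor and 15 other cells, with 8 and 3 of the placed cells exactly at the cut. Median depth was 20532 and 32989 UMIs on the hormone-sensing and progenitor sides.

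Members divided between these sides, and the ETS factors did not keep together. Of 6678 genes with at least 20 UMIs, 10.9% were higher on the hormone-sensing and 7.37% on the progenitor side, against 4 and 3 of the 10 factors. On the hormone-sensing side Foxa1 stood at 192 CPM (165 to 223) against 37.8 CPM (23.7 to 57.2) on the progenitor side, a log2 ratio of 2.35 (1.70 to 3.06). Elf3 stood at 112 against 20.6 CPM, a ratio of 2.45 (1.58 to 3.44). Sox9 (661 against 223 CPM) and Gata3 (205 against 82.5 CPM) gave ratios of 1.56 (1.29 to 1.85) and 1.31 (0.85 to 1.80).

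Elf5, Ehf and Sox10 lay on the other side. Elf5 had 56 UMIs in the 17 progenitor-side cells (96.2 CPM) and 2 in the 39 hormone-sensing cells (2.16 CPM), a log2 ratio of -5.48 (-8.56 to -3.56). Ehf gave -1.55 (-2.31 to -0.82) and Sox10 -2.92 (-4.93 to -1.33), the latter on 19 and 4 UMIs. The log2 ratio of Grhl2, 0.41 (-0.81 to 1.74), did not pass, and Trp63 and Snai2 had at most 3 UMIs on a side. Of the 7 calls, 3 (Foxa1, Sox9 and Elf5) were made in all 7 alternatives. Thinning to 5000 UMIs lost Elf3, at 1.06 (-1.08 to 4.25), and Ehf, at -1.96 (-4.29 to 0.26). Class cuts at 0.1 and 0.9 lost Gata3, at 0.97 (0.25 to 1.78), and Sox10, at -1.44 (-4.24 to 2.03). The remaining 5, leaving out the top cell of each side among them, lost none. Within the 11 luminal cells that held Elf5, 10 held Ehf, 8 held Sox10, 8 held Elf3 and 3 held Foxa1.

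**Figure D3:**
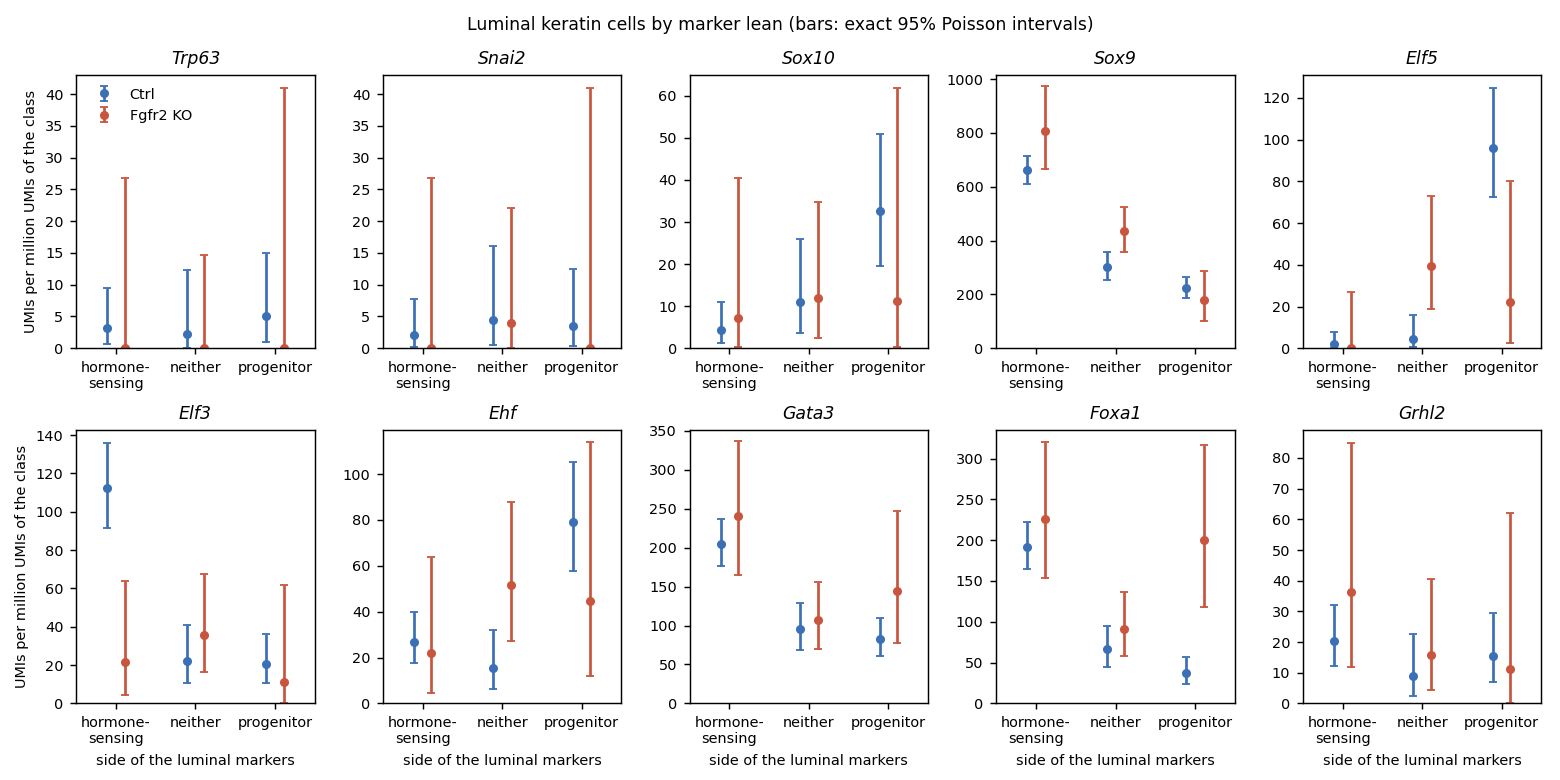
Level of each factor in UMIs per 1000000 UMIs, for luminal keratin cells on the hormone-sensing side, on neither side and on the progenitor side (horizontal axis), in Ctrl (blue) and Fgfr2 KO (red), with exact 95% Poisson intervals. Ctrl Elf3 (112 against 20.6 CPM) and Elf5 (2.16 against 96.2 CPM) lie at opposite ends.

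The Fgfr2 KO luminal class held 7, 3 and 8 cells on the hormone-sensing, progenitor and neither sides. There 1 of 10 was called, Sox9, higher on the hormone-sensing side (log2 ratio 2.18, 1.42 to 3.04), with 13.9% of 1541 genes higher on that side and 8.89% on the progenitor side. Foxa1 stood at 226 CPM on the hormone-sensing side and 200.1 CPM on the progenitor side, where 14 of its 18 UMIs came from 1 cell of the 3.

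Between libraries, 0, 1 and 0 of the 10 factors were called in the basal, luminal and both-set cells, counts near those of genes at large. In the basal class 4 of the 10 reached 20 UMIs and 8 gave a ratio, with a background of 2.38% of 4536 genes higher and 4.89% lower in Fgfr2 KO. Trp63 stood at 34.0 CPM in Fgfr2 KO and 23.3 CPM in Ctrl, a log2 ratio of 0.54 (-0.92 to 1.89). Snai2 stood at 29.7 and 11.7 CPM, a ratio of 1.35 (-0.39 to 3.09), so that rises of up to 1.89 and 3.09 on the log2 scale lay within counting error for these basal factors. Thinned to 5000 UMIs, Snai2 was called, at 3.60 (0.44 to 9.17). With each cell weighing alike Sox10 passed the rule, at 1.01 (0.01 to 1.95). That interval is the one of the summed counts moved to the new ratio, and it takes in no spread between cells. Sox9 (272 and 237 CPM) had the narrowest interval, 0.20 (-0.25 to 0.63).

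In the luminal class, where 8 of the 10 reached 20 UMIs, 1 of 10 was called, against 2.89% of 8306 genes higher and 4.73% lower. Elf3 had 13 UMIs in 18 Fgfr2 KO cells (27.1 CPM, 14.4 to 46.3) and 126 in 71 Ctrl cells (64.3 CPM, 53.6 to 76.6), a log2 ratio of -1.25 (-2.20 to -0.42). The top Ctrl cell held 30 of the 126, and without the top cell of each side the log2 ratio was -1.33 (-2.51 to -0.35). Counting cells with Ptprc as well gave -0.80 (-1.58 to -0.10), under the call, and thinning to 5000 UMIs gave -1.50 (-4.63 to 0.52), with an interval that held no change. On the hormone-sensing side Elf3 had 3 UMIs in 7 Fgfr2 KO cells and 104 in 39 Ctrl cells, a log2 ratio of -2.36 (-4.66 to -0.77), whereas among cells on neither side it stood at 35.6 and 22.2 CPM. Of 30 ratios, for 10 factors in 3 divisions, 5 were called on these few cells: this one, Elf5 (3.16) and Ehf (1.73) higher in Fgfr2 KO among cells on neither side, and Foxa1 higher (2.40) and Elf5 lower (-2.11) on the progenitor side. Among all genes with at least 20 UMIs, 3.14% were higher and 3.64% lower in Fgfr2 KO on the hormone-sensing side, 3.73% and 7.17% among cells on neither side, and 3.19% and 6.17% on the progenitor side. The other luminal factors were not called over the whole class, where the log2 ratios were 0.35 (-0.05 to 0.74) for Foxa1, 0.08 (-0.31 to 0.46) for Gata3, 0.07 (-0.72 to 0.79) for Ehf and -0.29 (-1.32 to 0.62) for Elf5. Sox9 was at 0.14 (-0.07 to 0.35). GFP RNA differed between these classes, at 1369 CPM in Fgfr2 KO and 220 CPM in Ctrl. The classes were set by keratins and not by donor, so the luminal class can hold cells of green basal donors. The part of such cells in these values was not tested.

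In cells with both keratin sets 0 of 10 were called, 8 of them with 20 UMIs, over 57 Ctrl and 5 Fgfr2 KO cells, with a background of 2.47% of 6650 genes higher and 2.26% lower. Sox9 stood at 473 CPM (350 to 625) in Fgfr2 KO and 271 CPM in Ctrl, a log2 ratio of 0.80 (0.34 to 1.24), short of 2-fold. Sox10 had 1 UMI in the 5 Fgfr2 KO cells, and Snai2 and Foxa1 had none. The comparisons in the 3 classes use different cells of the same 2 libraries, and library and genotype cannot be told apart.

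**Figure D4:**
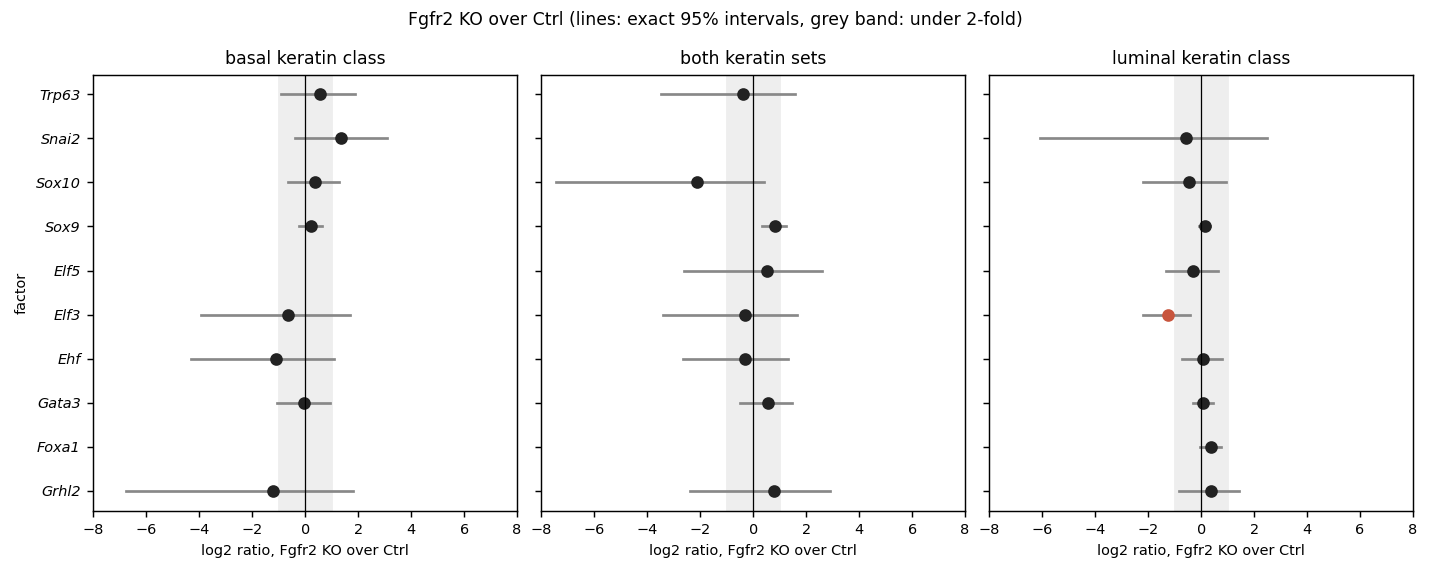
Log2 ratio of Fgfr2 KO over Ctrl (horizontal axis) for each factor in the 3 keratin classes, with exact 95% intervals as lines and ratios under 2-fold shaded. Points for factors with no UMI on one side, or at most 3 UMIs on both, are not drawn. Elf3 in the luminal class, at -1.25, is the called one (red).

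Other regulators, taken from lists written with earlier results of these data known, followed the class difference in part. Of 16 further basal regulators, 4 were called higher in the Ctrl basal class, and 1 lower. Only 8 of the 16 reached the 20 UMIs on which the background of 5.92% rests, and of these 2 (Id4 and Egr2) were higher. Id4, an inhibitor of basic helix-loop-helix factors, stood at 165 CPM in basal against 4.59 CPM in luminal cells. Irx4, a homeobox factor, had 13 UMIs against 1, Egr2 23 against 12, and Mef2c 11 against 0. Zeb2, a repressor of E-cadherin, was lower in the basal class, with 1 UMI against 32 in the luminal class, where fibroblast markers were also higher, at 653 against 118 CPM, and their part was not tested. The median log2 ratio of the list was 0.42.

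Of 22 further luminal regulators, 6 were called higher in the luminal class (Esr1, Pgr, Tbx3, Stat5a, Cited1 and Spdef), against a background of 8.55%. Another 2 (Tfap2c and Hey1) were called higher in the basal class, 9.09% against 5.92%, which is near the background. All 8 were among the 18 of the list that reached 20 UMIs, and the median log2 ratio was -0.22. Cited1, a coactivator in estrogen signalling, stood at 279 CPM in luminal against 6.66 CPM in basal cells. Tfap2c, an AP-2 factor, stood at 98.3 CPM in basal against 19.9 CPM in luminal cells. In Fgfr2 KO, 4 of the 16 (Id4, Egr2, Bcl11b and Tcf7l1) were higher in the basal class, of which Id4 alone was among the 4 genes that reached 20 UMIs, the base of the 7.29% background. Of the 22, 5 (Cited1, Spdef, Tbx3, Tfap2b and Xbp1) were higher in the luminal class and 3 (Cebpb, Klf5 and Tfap2c) in the basal class. Among the 10 of these with 20 UMIs the counts were 4, without Spdef, and 3, against 10.8% and 7.29% of genes.

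Between libraries in the basal class, 2 of the 16 basal regulators were called higher in Fgfr2 KO, and 0 of the 22 luminal ones in either direction. Of the 7 basal regulators with 20 UMIs it was 1, Bcl11b, against 2.38% of genes. Bcl11b, a zinc finger factor, had 14 UMIs against 7, a log2 ratio of 2.35 (0.94 to 3.90), and Tcf7l1, a factor of the Wnt pathway, 10 against 7, a ratio of 1.86 (0.32 to 3.49). In the luminal class, Tbx3, Spdef and Tfap2b were higher in Fgfr2 KO at log2 ratios of 1.58, 1.64 and 1.27, and Esr1 was lower at -3.59 (1 UMI against 49), 3 and 1 of the 22 against 2.89% and 4.73% of genes. In cells with both sets, Klf5 (1.45), Tfap2b (1.31) and Zeb2 (2.41) were higher on 19, 9 and 7 UMIs in 5 Fgfr2 KO cells. They were 2 of the 22 and 1 of the 16, with 12 and 8 genes at 20 UMIs and a background of 2.47%.

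Genes listed as targets of the factors were called in part in Ctrl, where 5.92% of genes with at least 20 UMIs were higher in the basal class and 8.55% in the luminal class. Of 7 genes under Trp63, 2 were higher in the basal class: Col17a1, a hemidesmosome collagen (99.96 against 3.06 CPM), and Perp, a desmosome protein (345 against 125 CPM). Of 4 under Grhl2, itself not called, 3 (Cdh1, Cldn4 and Rab25) were higher in the luminal class, at basal over luminal log2 ratios of -1.52, -2.75 and -1.60. Areg, the estrogen-induced growth factor, and Prlr, the prolactin receptor, were 2 of 3 genes under Gata3 and Foxa1 and stood at -5.99 and -5.52. The milk gene Lalba, 1 of 3 under Elf5 and the one called, had 61 UMIs in the Ctrl luminal class and 0 in the basal class, at least 6.23-fold higher. In Fgfr2 KO, 3 of the 7 (Col17a1, Perp and Itgb4, an integrin of the hemidesmosome) were higher in the basal class, against 7.29% of genes. In the luminal class Cldn4 and Rab25, 2 of the 4, and Areg and Prlr, 2 of the 3, were higher, against 10.8%, and 0 of 3 under Elf5 were. Between libraries, listed targets were called lower in Fgfr2 KO, where 4.89%, 4.73% and 2.26% of genes were lower in the basal, luminal and both-set cells: Cldn4 (-1.34) in the basal class, Itgb4 (-1.37) and Lalba (0 UMIs against 61) in the luminal class, and Cldn4 (-1.76) and Col17a1 (0 UMIs against 87) in cells with both sets.

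Across the 162 Ctrl cells with enough keratin UMIs, correlations of log(1 + UMIs per 10000) named the genes most like each factor among 9547 genes, a description over cells of 1 library that share its classes. Elf5 was most like Muc15 (r = 0.81), Csn3 (0.63) and Gm266 (0.62), and in the 37 Fgfr2 KO cells those values were 0.35, 0.55 and 0.67. Foxa1 was most like Prlr (0.73), Slc12a2 (0.73) and Krt19 (0.72), with 0.41, 0.51 and 0.59 in Fgfr2 KO. Sox9 and Gata3 shared their 3 leading genes, Prlr, Slc12a2 and Fam25c, at 0.54 to 0.55 and 0.51 to 0.53. Ehf was most like Elf5 (0.46), which held at 0.41 in Fgfr2 KO. The first genes of Trp63 (Cdh3, 0.48), Snai2 (E4f1, 0.44), Elf3 (Dkk2, 0.56) and Grhl2 (Daam1, 0.44) fell to between -0.09 and 0.09 in Fgfr2 KO. The second genes of these factors (Sostdc1, Tns4, Tmem86a and Mpv17l) stood at 0.20, 0.23, 0.14 and 0.36 there. The third (Trpv6, Cd27, Man1a and Apitd1) stood at -0.13, -0.07, -0.14 and 0.22. With few UMIs per cell such values are weak. Sox10 was most like Cst3, at 0.48 and 0.37. The log of all UMIs of a cell correlated with the members at -0.09 to 0.23.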

How the data were processed

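The deposited table holds UMI counts per gene and cell for both libraries, which the authors made from 10x Genomics reads. The submitters' processing notes name Cell Ranger 2.1.1 and mm10. The authors' methods name an earlier Cell Ranger version, with its aggr function, so the sources differ on this. Whether reads were thinned when the libraries were joined, and the annotation used, are not given in the sources used here. Counts were summed over the cells of a class and scaled by their total UMIs. Intervals were exact 95% Poisson (levels), conditional binomial (ratios) and Clopper-Pearson (shares), and cover counting error only. With each cell weighing alike, the interval of the summed counts was moved to the new ratio. Calls under that setting thus rest on no interval of their own. With 1 library per group there was no test. A group without a UMI was set at a floor of 3 counts for bounds.

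The members and gene lists were chosen with earlier results of these data known. All members are named, with listed genes that were called or serve as examples, and the 3 genes most correlated with each member where r was at least 0.3. The values of 1 listed gene are not reported here. Gene positions are from GENCODE M21, in which 95.2% of the 27998 genes were found by name. No cells were removed as doublets; Scrublet (scanpy 1.11.5) was an alternative. Counts for basal over luminal in Ctrl (8432 features) were simulated as Poisson sums without spread between cells. There the interval left out no change for 69.1% of genes changed 2-fold and 92.2% of those changed 4-fold. These shares are for the interval and not for the call, which also needs a ratio of at least 2-fold. Python 3.11.15, numpy 2.4.6 and scipy 1.17.1 were used.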

Additional observations from a re-analysis of the deposited data

Results flagged for a closer look

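Snai2 stood out among cells that the comparisons left aside. In the 33 Ctrl cells with fewer than 10 keratin UMIs and no Ptprc UMI it stood at 22.4 CPM (7 UMIs, 95% interval 8.99 to 46.1), against 5.61 CPM (2.26 to 11.6) in the 73 Ctrl cells with Ptprc. The same 33 cells held fibroblast markers at 19646 CPM, against 140 CPM in the cells with Ptprc, and their part in the Snai2 level was not tested. In Fgfr2 KO the 26 such cells had 2 Snai2 UMIs.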

How the results depend on the processing

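No paired analysis was possible because each group was 1 library. Of 15 called ratios in the 5 comparisons, 15 kept their sign in each alternative that gave a value, 4 had no value in some alternative, and 3 (Elf3 in Ctrl and Foxa1 in both libraries, basal over luminal) were called in all 12. Thinning to 5000 UMIs, which leaves fewer molecules, moved the most: in Ctrl 0 basal and 2 luminal factors were called, in Fgfr2 KO 1 basal factor, in the luminal class 0 were lower in Fgfr2 KO, in the basal class 1 (Snai2) was higher, 1 further luminal regulator was called, and the shares holding both kinds of factor were 23.2% in Ctrl and 0% in Fgfr2 KO. Requiring 2 UMIs gave 26.3% and 0%. A simple keratin majority left 3 luminal factors called in Ctrl. Class cuts at 0.1 and 0.9 gave 1 basal factor in Fgfr2 KO, 1 factor (Ehf) lower in Fgfr2 KO cells with both sets and 2 further luminal regulators. Weighing each cell alike gave 5 members higher in the luminal class in Fgfr2 KO (Sox9, Ehf, Gata3, Foxa1 and Grhl2), 1 factor (Sox10) higher in the Fgfr2 KO basal class and 1 (Sox10) lower in cells with both sets. A call at 1.5-fold gave 5 members higher in the luminal class in Fgfr2 KO (Sox9, Elf5, Ehf, Gata3 and Foxa1) and 1 factor (Sox9) higher in Fgfr2 KO cells with both sets. Without Scrublet calls 1 factor (Gata3) was higher there. Counting cells with Ptprc left 0 lower in the luminal class, with 19 Fgfr2 KO cells there instead of 18. All 6 Elf3 UMIs of the Fgfr2 KO cells with Ptprc were in 1 cell. The cause of these shifts was not tested. In the division of luminal cells, with alternatives chosen after seeing the data, 3 to 4 factors were called on the hormone-sensing and 2 to 3 on the progenitor side. Thinning lost Elf3 and Ehf there, and class cuts at 0.1 and 0.9 lost Gata3 and Sox10.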

Other observations

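Donor basal cells were green and had received GFP from the adenovirus. Whether the counted GFP RNA came from the virus or the reporter is not given in the sources used here. Cells with at least 10 GFP UMIs were few: 5 in Ctrl, of which 3 were in the luminal keratin class, and 8 in Fgfr2 KO, of which 6 were. From which donor these cells came was not tested. The 6 Fgfr2 KO luminal cells with high GFP held Foxa1 at 151 CPM and Gata3 at 146 CPM, and the other 12 luminal cells held them at 149 and 156 CPM. Elf5 and Ehf stood at 41.6 and 57.3 CPM in the 6 cells and at 13.9 and 31.3 CPM in the 12, on 8 and 11 UMIs in the 6. Trp63 and Snai2 had no UMI in the 6 cells, and Trp63 had none in the whole Fgfr2 KO luminal class. Sox10 had 4 UMIs in 3 of the 6 cells, at 20.8 CPM, against 3.47 CPM in the other 12.

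A Fgfr2 KO cell with a Ptprc UMI and 83994 UMIs held all 13 Gata3, all 6 Foxa1 and all 6 Elf3 UMIs of that class, and 35 of its 40 Sox9 UMIs.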
